A study of Mus musculus with 68 samples.

Results

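The enzymes that write methylation on lysine 9 of histone H3 (H3K9), the corepressor that brings one of them to its targets and a protein that reads the mark are described here from their mRNA. The 8 genes were Suv39h1, Suv39h2, Setdb1, Setdb2, Ehmt1 and Ehmt2 (the writers), Trim28 (the corepressor) and Cbx5 (the reader, HP1 alpha), taken by symbol from the 24421 gene symbols of each expression table. No measured value was used to choose them. All 8 are protein-coding. The libraries did not keep the strand, and 14.6% of the exon bases of Suv39h1 are shared with the antisense gene Gm14820 and 8.10% of those of Suv39h2 with Dclre1c, so reads there cannot be told apart. For Setdb1, the shares are 3.63% (Gm37500) and 1.09% (Cers2).

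RNA had been captured by its poly(A) tail from pools of 10 blastomeres and sequenced with Smart-seq2, a full-length cDNA method for very small samples. In the first experiment, cumulus cells (CCs), the somatic cells around the oocyte, gave 3 libraries, and the embryos made from them by somatic cell nuclear transfer (SCNT) gave 53. The oocytes and the donor cells came from B6D2F1 mice (BDF1 in the labels), the oocytes from superovulated adult females, and the reconstructed oocytes had been activated with strontium in the presence of cytochalasin B. The embryos were taken at 6 and 14 h post activation (hpa), at the early 2-cell (E2C), late 2-cell (L2C), 4-cell (4C) and 8-cell (8C) stages, at the morula stage and from blastocysts as the ICM (inner cell mass) and the TE (trophectoderm), with 6 libraries each, except 5 at 4C. In the second experiment, fertilized zygotes had been injected with a morpholino (MO) against Max or Mcrs1, and the ICM and TE of the resulting blastocysts gave 2 libraries per group. These are compared with 2 control ICM and 2 control TE libraries. The labels call the controls untreated, while the protocol and the paper describe a random control morpholino, which the paper, where it describes these libraries, gives at a higher concentration than the Max MO and the Mcrs1 MO. The fertilized embryos came from C57BL/6j matings, so strain, embryo type and experiment cannot be told apart between the first and the second set.

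H3K9 trimethylation (H3K9me3) compacts chromatin and keeps repeats and genes of other lineages silent, and in cloned embryos the marks carried over from the donor nucleus are a known barrier to genome activation. SUV39H1 and SUV39H2 write H3K9me3 at constitutive heterochromatin around centromeres, whereas SETDB1 is brought to retroviral elements and imprinted regions by KRAB zinc finger proteins through TRIM28. G9A (Ehmt2) and its partner GLP (Ehmt1) write mainly mono- and dimethylation in euchromatin, and HP1 alpha binds the methylated lysine and recruits further writers. An mRNA level, as measured here, is that of RNA captured by its poly(A) tail and says nothing of RNA without one. Nor does it tell the amount or activity of the protein or of the mark itself.

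Libraries of the first experiment held 1.90 to 5.17 aligned gigabases and those of the second 1.00 to 3.19, as derived from the tables. Values are in TPM, the usual unit of transcript abundance, which are scaled per transcript length. They are those of the annotated genes unless stated. Loci assembled from the reads were also quantified and can give another level for the same gene, so the order of different genes holds for the annotated genes only. In 4C replicate 3, Cbx5 and Trim28 held 17.7 and 26.6 TPM as annotated genes and 115 and 40.8 TPM on the assembled loci. In 4C replicates 2 and 5, Trim28 was the higher on both. The annotated genes took up only 30.4% to 61.8% of the TPM assembled in the L2C libraries, against 81.8% to 82.5% in CCs. In the second experiment, they took up 85.5% to 90.3% in the 4 control libraries and 93.6% to 94.4% in the 8 knockdown libraries, without overlap. Within a stage, SCNT replicates 1 to 3 and 4 to 6 often formed separate sets: between 24.6% of all genes (morula) and 51.8% (14 hpa) had no overlap between them. The labels do not say what the sets are. The 8 cumulus cell markers summed to 1104 to 1406 TPM in CCs and to at most 39.5 TPM in any SCNT library. No 2 libraries were identical.

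Along SCNT development, the 8 genes did not move together. Suv39h2 mRNA was abundant up to L2C and low from 4C onwards, Setdb1 was highest at 6 and 14 hpa, and Setdb2 was highest at L2C. Ehmt2 was near 0 at 6 and 14 hpa, and Trim28 fell sharply between 6 and 14 hpa. Trim28 then rose to become the most abundant of the 8 annotated genes in mean TPM from 4C onwards.

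A change was called when the Benjamini-Hochberg adjusted p of limma, over all 12084 tested genes, was below 0.05 and the difference was at least 2-fold on the log2(TPM + 1) scale. All 8 genes were in the test. Between 6 and 14 hpa, 1 of the 8 was called, beside 11.2% of all genes. From 14 hpa to E2C, it was 1 of 8 beside 6.00%. The step from E2C to L2C, when the embryonic genome is broadly activated, had 3 of 8 higher and none lower, beside 34.7% of all genes in either direction and 23.6% higher. The median log2 fold change of the 8 there was 0.44, and that of all genes 0.26. From L2C to 4C, 1 was higher and 2 were lower, beside 38.3%. From 4C to 8C, 1 was higher and 1 lower, beside 20.0%. No gene of the 8 was called from 8C to morula by limma, beside 12.6% of all genes, and 2 had an unadjusted p below 0.05. Of these, Ehmt1 also had an adjusted p below 0.05 but fell short of 2-fold (-0.89, adjusted p = 0.0294). Likewise none was called between morula and ICM, beside 24.0%, and 3 had an unadjusted p below 0.05. Between morula and TE, 1 was higher, beside 22.0%. Read against the shares of all genes, each count lay within 2 genes of the number that the share gives for 8 genes. In a pool of cells, fewer cells of a kind and less RNA per cell cannot be told apart. The paper calls the samples biological replicates, and neither it nor the labels say which shared a mating, a day of injection or a pool of donors, so the p-values measure the spread between these libraries.

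**Figure D1:**
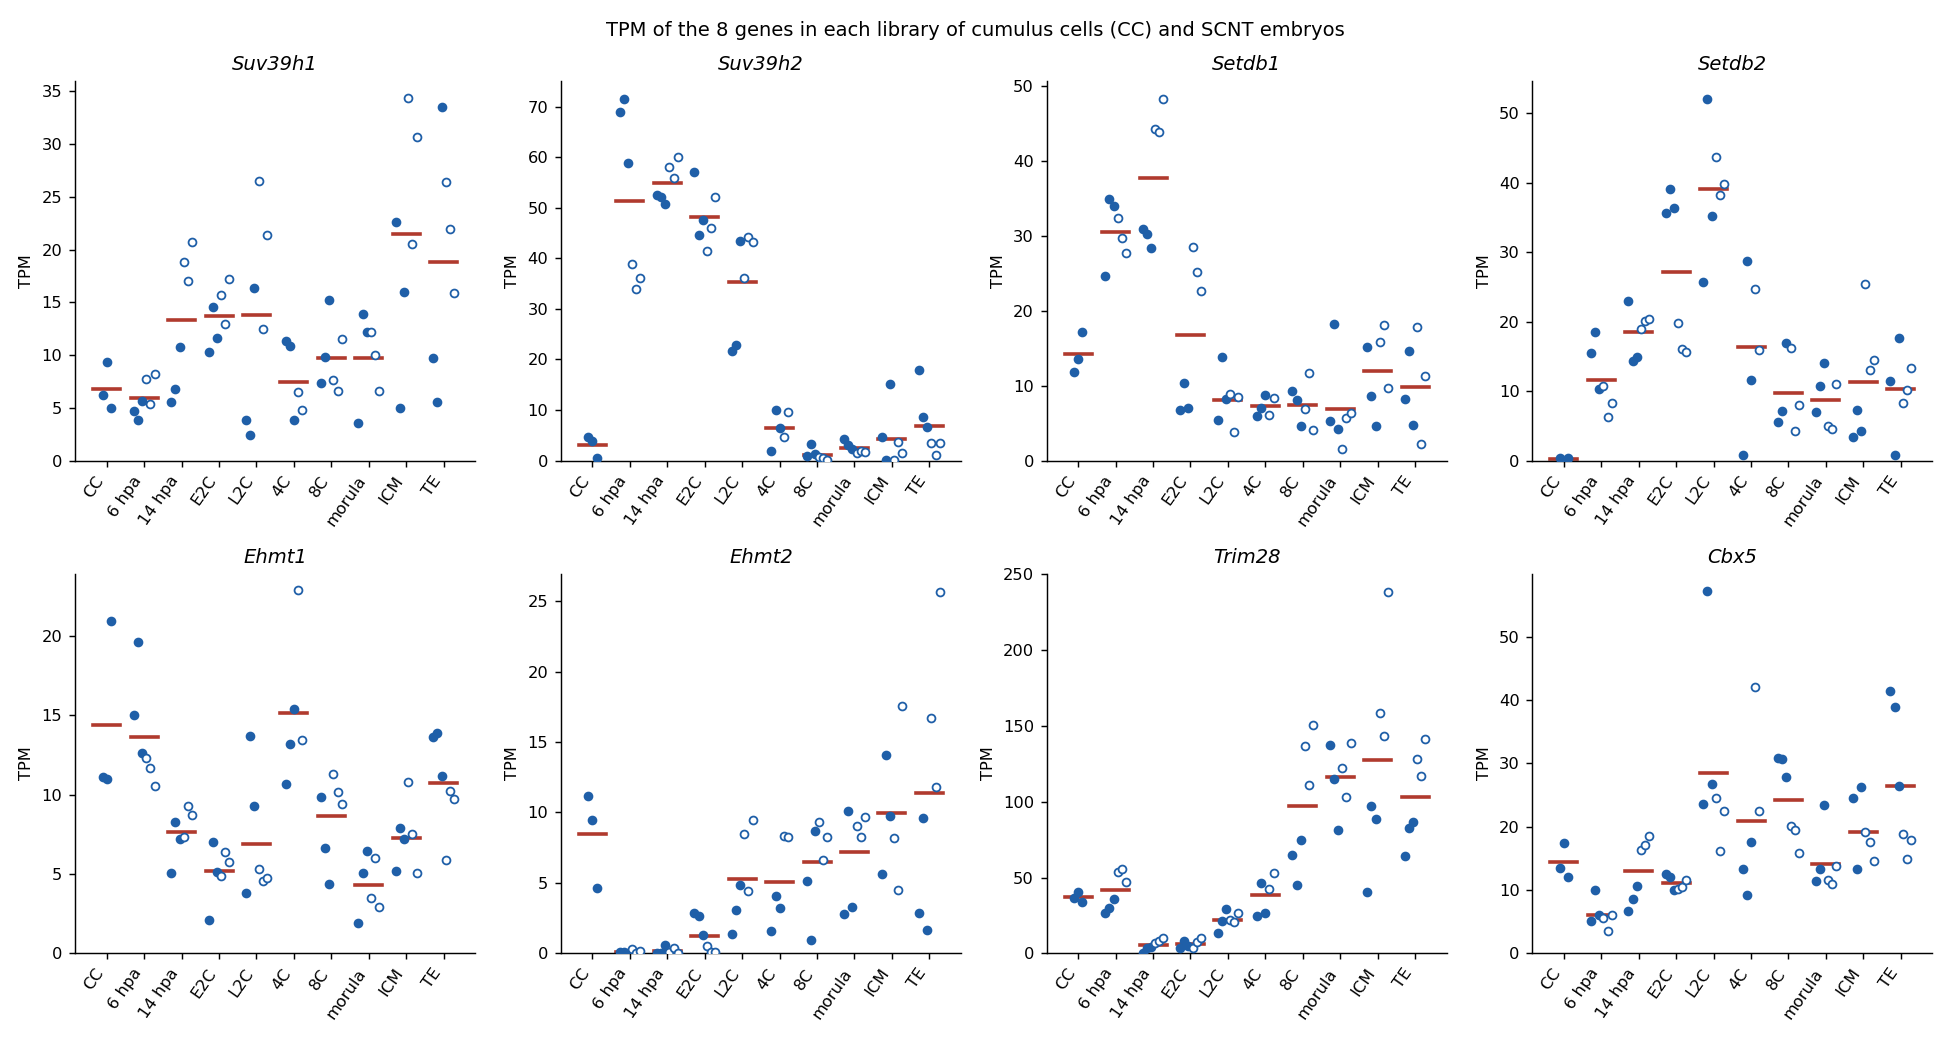
TPM (linear axis from 0, a scale of its own in each panel) of the 8 genes in each library of CCs and SCNT embryos; filled points are replicates 1 to 3, open points replicates 4 to 6, and the red bar is the group mean. Suv39h2 lies at 21.6 TPM or more in every library from 6 hpa to L2C and at 17.9 TPM or less afterwards, while Trim28 is at 9.87 TPM or less at 14 hpa and at 40.3 TPM or more in every library from 8C onwards.

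**Figure D2:**
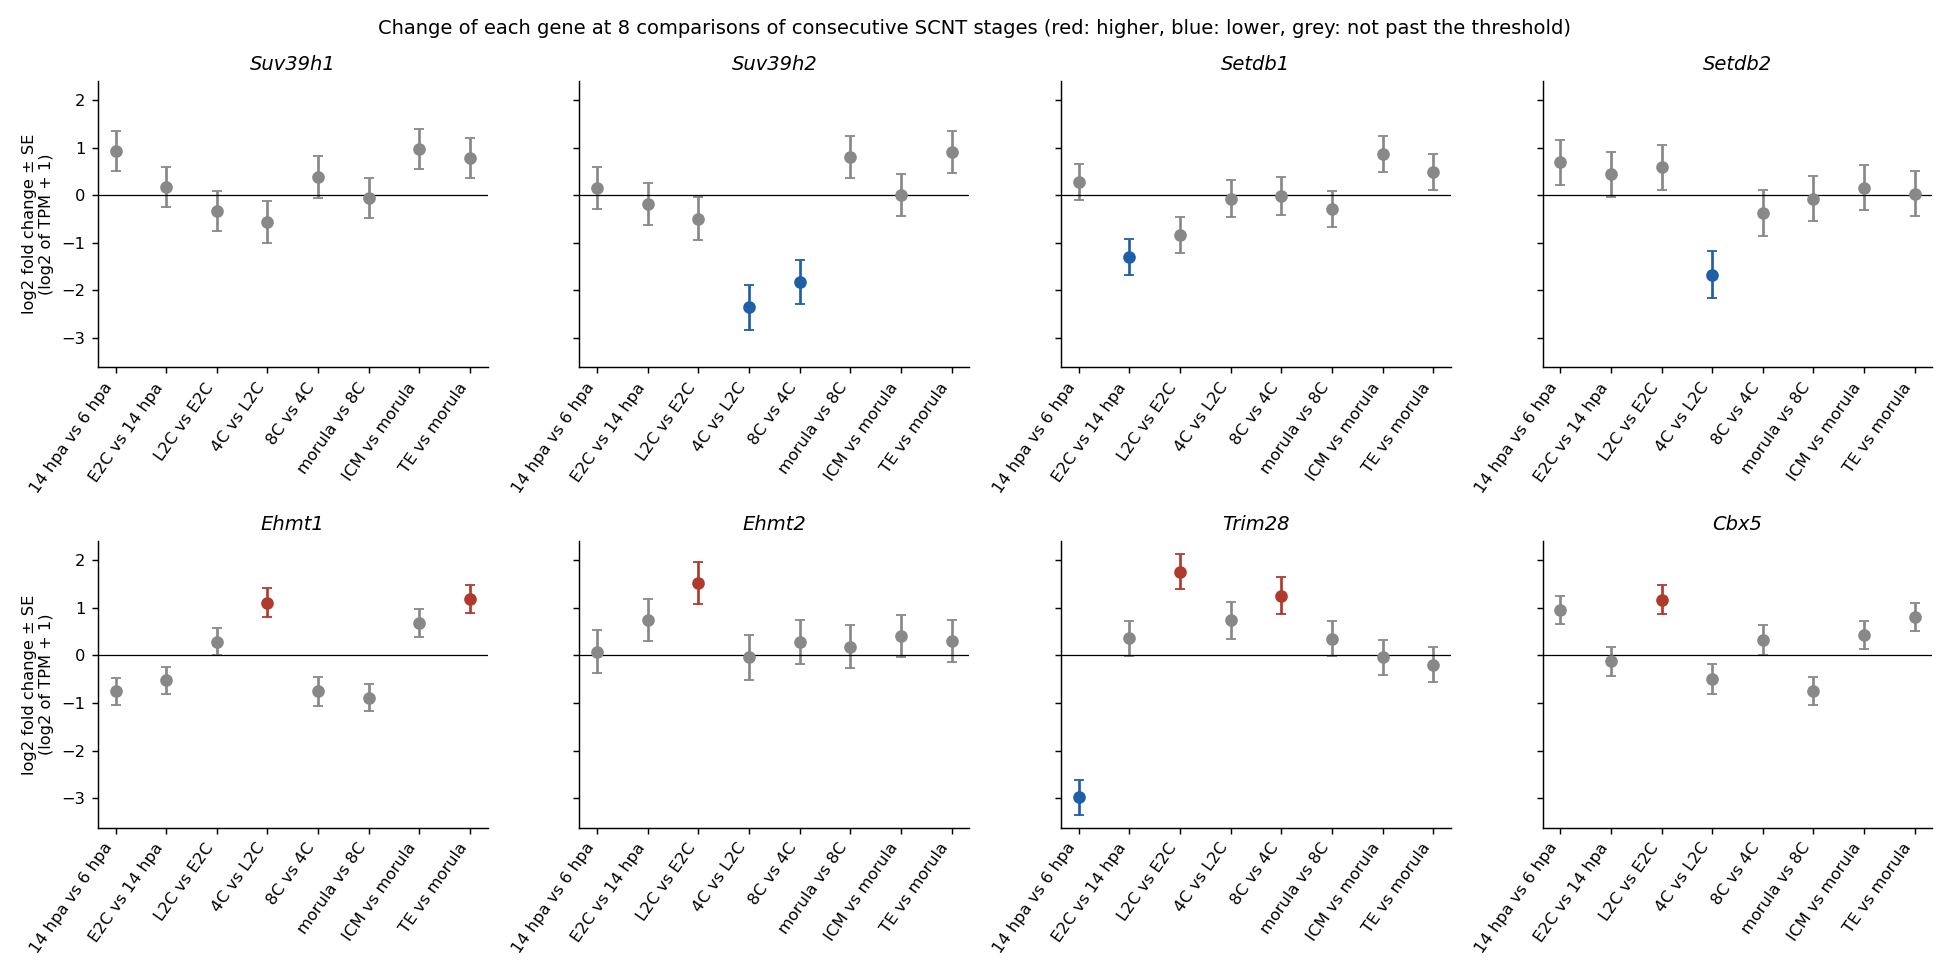
Log2 fold change with its standard error (SE) from limma, on the log2(TPM + 1) scale, for each gene at 8 comparisons of consecutive stages; red is higher, blue is lower and grey did not pass the threshold. The largest fall is that of Trim28 at 14 hpa (-2.98), and the 3 red points at L2C are those of Ehmt2, Trim28 and Cbx5.

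Of the SUV39 writers, Suv39h2 (chromosome 2, 3455815 to 3474986, minus strand, mm10) had the more marked course. At 6 hpa, its values ran from 34.0 to 71.5 TPM with a median of 48.8 TPM. They were 50.7 to 60.0 TPM at 14 hpa, 41.4 to 57.0 TPM at E2C and 21.6 to 44.2 TPM at L2C. Each of these stages overlapped the next, and none of the steps between them was called. The L2C libraries all lay below those of 14 hpa. At 4C, the 5 libraries held 1.95, 9.99, 6.43, 4.67 and 9.58 TPM, all below the lowest L2C library. The fall was -2.36 on the log2 scale (SE 0.47, adjusted p = 3.73e-05) and was called under each of the 17 alternatives tried, with log2 values from -2.65 to -2.06. Over the same step, the 8 oocyte markers summed to 422 to 1278 TPM at L2C and to 52.7 to 139 TPM at 4C, and the part of the loss of oocyte mRNA in the fall of Suv39h2 was not tested. The fall of Suv39h2 continued to 8C, where Suv39h2 ranged from 0.0457 to 3.31 TPM (log2 fold change -1.83, SE 0.47, adjusted p = 0.00299). With replicates 1 to 3 alone, the step to 8C was -1.25 with an adjusted p of 0.219. In the morula, ICM and TE, the means were 2.45 ± 1.09, 4.22 ± 5.69 and 6.89 ± 6.00 TPM (SD, n = 6), and the ICM libraries spread from 0.0832 to 15.2 TPM.

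CCs held little Suv39h2, with 4.64, 3.87 and 0.560 TPM. Every 6 hpa embryo was above every CC library, and the log2 difference was 3.84 (SE 0.54, adjusted p = 1.85e-08). At 6 hpa against CC, 61.4% of all genes were called and 5 of the 8 were, so most genes differ between these cells. The oocyte cytoplasm contributes its own mRNA at 6 hpa, and the 8 oocyte markers (such as Zp3, Gdf9 and Bmp15) summed to 2770 to 5159 TPM there against 2.01 to 2.58 TPM in CCs. The share of each mRNA that came from the oocyte or from the transferred nucleus was not tested.

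Suv39h1 (chromosome X, 8061171 to 8074760, minus strand) followed another course. Its group means ranged only from 5.94 ± 1.72 TPM at 6 hpa (SD, n = 6) to 21.5 ± 10.6 TPM in the ICM (SD, n = 6), and each group overlapped its neighbour in the order of levels. No step along development was called for it over all libraries. At 14 hpa, replicates 1 to 3 held 5.54, 6.83 and 10.8 TPM and replicates 4 to 6 held 18.8, 17.1 and 20.7 TPM. The log2 change from 6 to 14 hpa was 0.94 (SE 0.42, adjusted p = 0.152) over all libraries and 1.30 (adjusted p = 0.00193) in replicates 4 to 6 alone. These are values of the annotated gene only. No locus assembled from the reads lay over Suv39h1 on its strand in any library of 14 hpa or E2C, or in replicates 3, 4 and 5 of 6 hpa. The part of antisense reads in its level there was not tested. ICM cells held 4.98 to 34.4 TPM against 6.17, 9.34 and 4.94 TPM in CCs, a log2 difference of 1.37 (SE 0.52, adjusted p = 0.0290) with overlapping ranges, which was lost in 5 of 14 alternatives, among them the replicate block (1.09, adjusted p = 0.0635) and replicates 1 to 3 alone (0.81, adjusted p = 0.343). It was also lost without CC replicate 1 (adjusted p = 0.0854) and without CC replicate 3 (adjusted p = 0.129). With the 3 later ICM replicates only, Suv39h1 was also called from morula to ICM (1.53, adjusted p = 0.0178). In replicates 4 to 6 alone, Suv39h1 also fell from L2C to 4C (-1.62, adjusted p = 2.41e-04) and rose from morula to ICM (1.49, adjusted p = 4.29e-04) and to TE (1.09, adjusted p = 0.00588). Replicates 1 to 3 of the ICM held the fewest genes at 1 TPM or more.

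The balance of the pair turned over between L2C and 8C. Suv39h2 exceeded Suv39h1 within each of 6 libraries at 6 hpa, 14 hpa, E2C and L2C. At 4C, it did so in 2 of 5 libraries. At 8C, it did so in 0 of 6, and the mean log2 ratio went from 1.59 ± 0.85 at L2C (SD, n = 6) to -2.43 ± 0.75 at 8C (SD, n = 6). In the fertilized blastocysts, Suv39h1 was the higher of the pair in all 12 libraries.

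**Figure D3:**
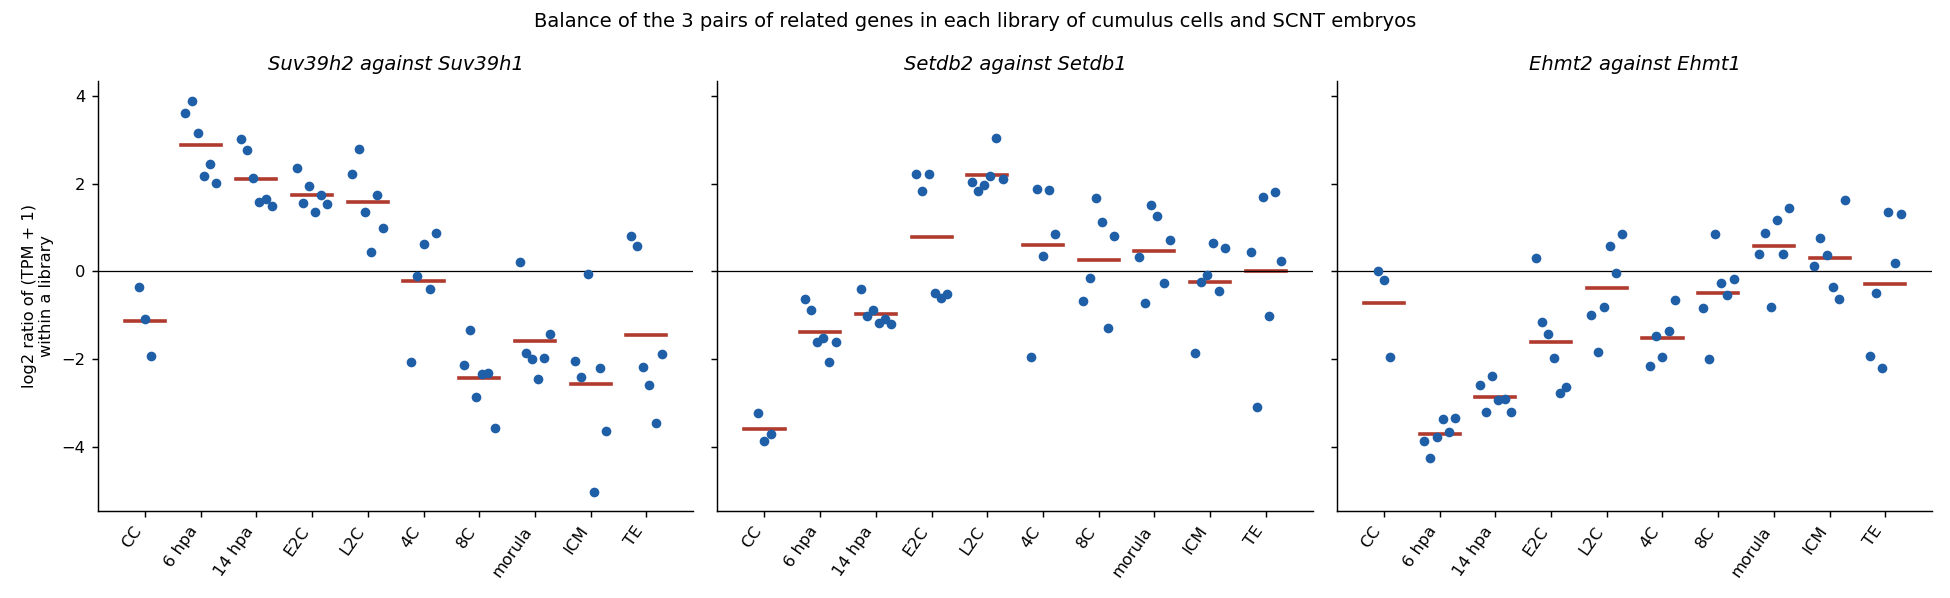
Log2 ratio of (TPM + 1) within each library for Suv39h2 against Suv39h1, Setdb2 against Setdb1 and Ehmt2 against Ehmt1, in CCs and SCNT embryos; points are libraries and red bars group means, and a value above 0 means more of the gene named first. Suv39h2 leads in 6 of 6 libraries up to L2C and in 0 of 6 at 8C, Setdb2 leads in 6 of 6 at L2C, and Ehmt2 lies far below Ehmt1 at 6 and 14 hpa.

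Setdb1 (chromosome 3, 95323525 to 95357202, minus strand), the H3K9 trimethylase that works with TRIM28, was highest in the 1-cell embryo. Its values were 24.6 to 34.9 TPM at 6 hpa and 28.3 to 48.3 TPM at 14 hpa. At E2C, replicates 1 to 3 held 6.79, 10.3 and 6.97 TPM and replicates 4 to 6 held 28.5, 25.1 and 22.6 TPM. The fall of the annotated gene was thus wide in one set and small in the other. The loci assembled from the reads over Setdb1 did not show this split. They held 34.6, 33.9 and 33.3 TPM in replicates 1 to 3 and 29.4, 55.1 and 22.6 TPM in replicates 4 to 6. Over all libraries, the fall of the annotated gene was -1.31 (SE 0.38, adjusted p = 0.0227). It was -1.79 (adjusted p = 0.0130) in replicates 1 to 3 alone and -0.82 (adjusted p = 0.415) in replicates 4 to 6 alone. In those later replicates, Setdb1 instead fell from E2C to L2C (-1.79, adjusted p = 0.00433). From L2C on, the values stayed between 1.52 and 18.2 TPM, with the mean lowest in the morula at 6.88 ± 5.81 TPM (SD, n = 6). No later step was called over all libraries, but Setdb1 rose from morula to ICM in replicates 4 to 6 alone (1.60, adjusted p = 0.0140). CCs held 11.8, 13.6 and 17.2 TPM, all below the 6 hpa embryos (1.06, SE 0.47, adjusted p = 0.0436). This difference was lost in 7 of 13 alternatives, among them without each CC library in turn (adjusted p from 0.0537 to 0.137) and with the replicate number as a block (0.97, adjusted p = 0.0665).

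Setdb2 (chromosome 14, 59402011 to 59440877, minus strand), a related H3K9 methyltransferase, was almost absent from CCs, with 0.362, 0 and 0.396 TPM. At 6 hpa, it ranged from 6.34 to 18.5 TPM, above all CC libraries (log2 difference 3.27, SE 0.58, adjusted p = 2.09e-06). It was still above CCs in the ICM (3.03, adjusted p = 2.02e-05) and in the TE (2.91, adjusted p = 4.51e-05), and these 3 comparisons share the same 3 CC libraries. They were called under each alternative tried. At ICM against CC, 3 of the 8 were called beside 37.9% of all genes, and at TE against CC 2 of the 8 beside 35.8%.

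The highest mean of Setdb2 was that of L2C, at 39.1 ± 8.78 TPM (SD, n = 6) with a range of 25.7 to 52.1 TPM. At 4C, the 5 libraries held 0.799, 28.7, 11.5, 24.8 and 15.9 TPM, which partly overlapped those of L2C. The fall was -1.67 (SE 0.49, adjusted p = 0.00487). Without 4C replicate 1, the library with 0.799 TPM, it was -0.97 (adjusted p = 0.0808), and in replicates 4 to 6 alone -0.99, just short of 2-fold. At E2C, the sets of replicates were again apart in the annotated gene, but the other way round from Setdb1. Setdb2 held 35.7, 39.1 and 36.4 TPM in replicates 1 to 3 and 19.8, 16.0 and 15.6 TPM in replicates 4 to 6. In replicates 1 to 3, Setdb2 thus exceeded Setdb1 by E2C, and in replicates 4 to 6 only by L2C. At L2C, it did so in 6 of 6 libraries, with a mean log2 ratio of 2.20 ± 0.43 (SD, n = 6). Sets of 3 replicates without overlap at E2C were found for 3 of the 8 genes and for 40.6% of all genes.

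Ehmt2 (chromosome 17, 34898492 to 34914050, plus strand), which encodes G9A, was present in CCs at 11.2, 9.48 and 4.67 TPM. At 6 hpa, no library exceeded 0.295 TPM and 2 of 6 were listed at 0. At 14 hpa, no library exceeded 0.578 TPM and again 2 of 6 were listed at 0. The log2 difference between 6 hpa and CCs was -3.03 (SE 0.55, adjusted p = 3.16e-06) and was called under each of 13 alternatives. At E2C, replicates 1 to 3 held 2.84, 2.61 and 1.28 TPM, and replicates 4 to 6 held 0.491, 0.0724 and 0.0862 TPM. At L2C, the range was 1.39 to 9.44 TPM, a rise of 1.52 (SE 0.45, adjusted p = 0.00499). It was 2.76 (adjusted p = 9.91e-07) in replicates 4 to 6 alone and 0.29 (adjusted p = 0.791) in replicates 1 to 3 alone. From 4C to TE, the means lay between 5.09 ± 3.05 TPM (SD, n = 5) and 11.4 ± 8.98 TPM (SD, n = 6), with no further call.

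Ehmt1 (chromosome 2, 24790769 to 24919609, minus strand), which encodes GLP, moved less and with other timing. CCs held 11.1, 11.0 and 21.0 TPM and 6 hpa embryos 10.6 to 19.6 TPM, with a log2 difference of -0.04 (SE 0.35, adjusted p = 0.951). At 14 hpa, it was at 5.04 to 9.28 TPM, where every library was below every 6 hpa library (-0.75, SE 0.29, adjusted p = 0.0733). It rose from 3.80 to 13.7 TPM at L2C to 10.7 to 22.9 TPM at 4C (1.11, SE 0.30, adjusted p = 0.00217) and rose from morula to TE (1.18, SE 0.29, adjusted p = 0.00130). In the TE, it was 5.87 to 13.9 TPM and in the morula 1.91 to 6.46 TPM. The rise at 4C was 0.97 when TPM was rescaled over the annotated genes, below the 2-fold threshold, although its adjusted p was 0.00769. It also fell short of 2-fold without L2C replicate 1 (0.99) and without 4C replicate 4 (0.95), and it was 0.63 (adjusted p = 0.345) in replicates 1 to 3 alone. The difference from morula to TE was 0.92 in replicates 4 to 6 alone, again short of 2-fold. Ehmt1 exceeded Ehmt2 in all 12 libraries of 6 and 14 hpa and in 5 of 6 at E2C, whereas Ehmt2 was the higher in 5 of 6 morula libraries. On the loci assembled from the reads, Ehmt2 was the higher in morula replicates 2, 5 and 6 only. Ehmt1 was the higher in replicates 1 (10.3 against 5.50 TPM), 3 (18.9 against 5.39 TPM) and 4 (15.4 against 13.8 TPM).

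Trim28 (chromosome 7, 13024152 to 13031032, plus strand), the scaffold that KRAB zinc finger proteins use to bring in SETDB1 and HP1, showed the largest single change of the 8 between consecutive stages. It was at 26.9 to 55.9 TPM at 6 hpa and at 0.107, 3.75, 3.86, 6.83, 8.07 and 9.87 TPM at 14 hpa, without overlap. The log2 change was -2.98 (SE 0.37, adjusted p = 1.60e-08), and the gene was lower in both sets of replicates (-3.43 in replicates 1 to 3, -2.53 in replicates 4 to 6). The levels at E2C were 3.36 to 9.92 TPM and overlapped those at 14 hpa.

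Trim28 then rose in steps. L2C libraries held 13.6 to 29.2 TPM, all above E2C (1.76, SE 0.37, adjusted p = 1.06e-04), and this rise was called under each of 12 alternatives. The 4C libraries held 24.3, 46.2, 26.6, 42.2 and 52.6 TPM. The 8C libraries held 64.9, 45.3 and 75.0 TPM in replicates 1 to 3 and 137, 111 and 150 TPM in replicates 4 to 6 (1.26, SE 0.39, adjusted p = 0.0136). This last step was lost in 5 of 16 alternatives: it was 0.79 (adjusted p = 0.134) with TPM rescaled over the annotated genes, 0.94 (adjusted p = 0.184) in replicates 1 to 3 alone and 1.12 (adjusted p = 0.0555) without 4C replicate 1. From 8C on, the means were 97.3 ± 42.1, 116 ± 21.7, 128 ± 68.7 and 103 ± 30.0 TPM (SD, n = 6 each) at 8C, morula, ICM and TE. Against CCs (36.7, 40.6 and 33.6 TPM), Trim28 was higher in the ICM (1.57, SE 0.45, adjusted p = 0.00392) and in the TE (1.41, SE 0.45, adjusted p = 0.0104), while the difference at 6 hpa was 0.11 (adjusted p = 0.864). In replicates 1 to 3 alone, these were 0.91 (adjusted p = 0.127) in the ICM and 1.04 (adjusted p = 0.0958) in the TE.

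Cbx5 (chromosome 15, 103191546 to 103239816, minus strand), the reader, was the lowest at 6 hpa, with 3.44 to 10.0 TPM against 13.5, 17.4 and 12.1 TPM in CCs (-1.17, SE 0.37, adjusted p = 0.00505). At 14 hpa, it was at 6.69 to 18.5 TPM, a difference of 0.96 (SE 0.30, adjusted p = 0.0233) that fell short of 2-fold. It was 1.15 (adjusted p = 0.00561) with TPM rescaled over the annotated genes, 1.06 (adjusted p = 0.0285) with a pseudocount of 0.1 and 1.63 (adjusted p = 1.81e-05) in replicates 4 to 6 alone, which at 14 hpa held 16.4 to 18.5 TPM against 6.69 to 10.6 TPM in replicates 1 to 3. The difference from CCs was lost under quantile normalization (-0.68, adjusted p = 0.102) and fell short of 2-fold in replicates 1 to 3 alone (-0.97). E2C libraries lay close together at 10.0 to 12.6 TPM. L2C libraries held 16.2 to 57.3 TPM, all above E2C (1.17, SE 0.30, adjusted p = 0.00134). Quantile normalization, which gives every library the same distribution of values, moved that rise to 0.93 and replicates 4 to 6 alone to 0.90, both under 2-fold. Later means ranged from 14.1 ± 4.69 TPM (SD, n = 6, morula) to 26.5 ± 11.4 TPM (SD, n = 6, TE) with no call over all libraries. The rise of Cbx5 from morula to TE was 0.81 (SE 0.30, adjusted p = 0.0407), short of 2-fold. Replicates 1 to 3 alone gave calls from L2C to 4C (-1.29, adjusted p = 0.0159), 4C to 8C (1.14, adjusted p = 0.0453) and morula to TE (1.15, adjusted p = 0.0398). Replicates 4 to 6 alone gave none of these.

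No gene of the 8 differed between the SCNT ICM and TE by limma, beside 5.79% of all genes, and 1 had an unadjusted p below 0.05. That gene was Suv39h2, at -0.91 in ICM against TE (SE 0.44, adjusted p = 0.251). The other 7 differences lay between -0.50 (Ehmt1) and 0.38 (Setdb1). The libraries carried their labelled lineage only in part: the 8 TE markers summed to 1951 to 8425 TPM in the ICM and to 5152 to 16187 TPM in the TE, with overlap. The 8 ICM markers summed to 247 to 785 TPM and 78.0 to 350 TPM. What cells of the other lineage added to these values was not tested.

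Partner genes of the writers were counted from lists that were set up beside the 8. Of the 7 partners of SETDB1 and members of the HUSH complex, which spreads H3K9me3 over retroelements, 3 rose at L2C (Tasor, listed as Fam208a, by 2.32, Morc2a by 1.72 and Pphln1 by 1.53) and none fell, beside 23.6% of all genes higher. Mphosph8, the HUSH reader, had fallen at 14 hpa (-1.29, adjusted p = 0.0197) and at E2C (-1.83, adjusted p = 0.00131). Of the 8 G9A and GLP partners, 3 rose at L2C, namely E2f6 by 2.37, Mga by 1.58 and Zfp644 (adjusted p = 0.00236). Both HP1 paralogs of Cbx5 were called there in opposite directions, Cbx3 (HP1 gamma) by 3.58 and Cbx1 (HP1 beta) by -1.15.

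The KRAB zinc fingers that bring in TRIM28 included Zfp57, which protects imprinted regions. It was higher at 6 hpa than in CCs by 7.79 (adjusted p = 1.46e-18), fell at E2C, L2C, 4C and 8C, and rose from morula to ICM by 4.00 (adjusted p = 3.83e-10). Of the 5 genes of this list, 3 fell and none rose from L2C to 4C, when 38.3% of all genes were called in either direction. Of the 9 heterochromatin cofactors, 3 fell at that step and none rose. Those that fell were Uhrf1, the reader of half-methylated DNA, by -2.45, Atrx by -1.51 and Hells by -1.20. The 6 tested of 8 H3K9 demethylases, the opposing enzymes, had 2 higher and 1 lower at L2C and 1 higher and 3 lower at 4C. Among these were Kdm3a and Kdm4c at L2C (2.24 and 1.93) and Kdm7a and Phf8 at 4C (-2.70 and -1.91).

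Likeness of course was measured as Pearson's r between group means of log2(TPM + 1), over the 10 groups of CCs and SCNT embryos and all 7918 genes of at least 5 TPM on average. It is a description, since many genes share these stages and libraries. The genes most like Suv39h2 were Fam208b, which is Tasor2 (r = 0.993), Kpna3 (0.992) and Nr6a1 (0.987). For Ehmt2, they were Bzw1 (0.995), Alg5 (0.992) and Mpv17 (0.990). For Trim28, they were Lman2 (0.964), Hars (0.958) and U2af1 (0.953). Setdb1 was most like Csad (0.946), Tbc1d19 (0.941) and Acbd3 (0.935), and Setdb2 most like Anapc15 (0.950), Usp37 (0.946) and Sycp3 (0.941). Suv39h1 was most like Map2k6 (0.927), Ybx3 (0.889) and Abhd12 (0.881), and Cbx5 most like Calm2 (0.914), Faap24 (0.912) and Tatdn3 (0.911). Ehmt1 had the loosest likeness, with Hnrnpu (0.808), Zcchc6 (0.796) and Pikfyve (0.788).

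In the fertilized blastocysts, the comparison asked what the loss of Max or Mcrs1 changed. MAX is the partner through which MYC-family and MGA proteins bind DNA at the E-box CACGTG, and MCRS1 is a subunit of a histone acetyltransferase complex. A morpholino blocks translation or splicing, so the mRNA of its target need not fall. Max held 38.0 and 8.42 TPM in the control ICM and 6.82 and 0.443 TPM in the Max MO ICM (log2 fold change -2.51, adjusted p = 0.0397). The control TE had 34.5 and 28.5 TPM of Max, and the Max MO TE 16.3 and 8.68 TPM (-1.32, adjusted p = 0.390). The Mcrs1 MO libraries held 9.25 to 17.6 TPM of Max. Mcrs1 held 253 and 310 TPM in the control ICM and 86.8 and 73.4 TPM in the Mcrs1 MO ICM (-1.80, adjusted p = 0.00333). It went from 219 and 294 TPM to 41.1 and 45.5 TPM in the TE (-2.53, adjusted p = 8.68e-04).

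The 2 control ICM libraries did not resemble each other in lineage. Replicate 1 held 16130 TPM of the 8 TE markers, with Cdx2 at 57.7 TPM, close to the 18531 and 20697 TPM of the control TE, and replicate 2 held 378 TPM, with Cdx2 at 0.222 TPM. Their 8 ICM markers summed to 1399 and 1905 TPM, both above the 212 and 333 TPM of the control TE. In the Max MO ICM, TE markers summed to 2744 and 5862 TPM and in the Mcrs1 MO ICM to 11636 and 8134 TPM, and ICM markers to 1072 and 1184 TPM and to 430 and 991 TPM. The 6 primitive endoderm markers summed to 57.9 and 64.9 TPM in the control ICM, to 94.9 and 292 TPM in the Max MO ICM and to 103 and 105 TPM in the Mcrs1 MO ICM. The part of these cells in the ICM results was not tested. Where leaving out 1 control ICM library changed a call of the 8 genes, the ICM values are also given without it. The Max MO and Mcrs1 MO comparisons share the same control libraries.

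After Max knockdown, 3 of the 8 genes were lower in the ICM and none higher, beside 23.7% of all 11219 tested genes in either direction and 15.1% lower. They were Setdb1, Suv39h1 and Cbx5. In the TE, no gene of the 8 was called by limma, beside 2.50% of all genes, although all 8 log2 fold changes were negative and 4 had an unadjusted p below 0.05. The median of the 8 was -0.72 in the ICM and -0.74 in the TE, and that of all genes -0.21 and -0.19. After Mcrs1 knockdown, no gene of the 8 was called in the ICM, beside 10.1%, or in the TE, beside 5.08%, and 2 had an unadjusted p below 0.05 in each. The medians of the 8 were -0.39 and -0.69, and those of all genes -0.05 and -0.24.

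Setdb1 held 82.2 and 33.0 TPM in the control ICM and 41.8 and 37.3 TPM in the control TE. After the Max MO, the ICM libraries had 5.76 and 15.3 TPM and the TE libraries 15.6 and 14.8 TPM. After the Mcrs1 MO, they had 11.9 and 18.2 TPM and 10.1 and 14.2 TPM. Each of the 4 control libraries was thus above each of the 8 knockdown libraries, a separation that 9.06% of all genes shared in this direction. The log2 fold change in the Max MO ICM was -2.34 (SE 0.52, adjusted p = 0.00886). It was -1.69 (adjusted p = 0.0311) without control ICM replicate 1 and -2.99 (adjusted p = 0.00187) without replicate 2. Without Max MO ICM replicate 1, it was -1.70 and no longer called (adjusted p = 0.0683). The other 3 comparisons missed the threshold, with -1.32 in the Max MO TE (SE 0.52, adjusted p = 0.181), -1.76 in the Mcrs1 MO ICM (SE 0.52, adjusted p = 0.0505) and -1.64 in the Mcrs1 MO TE (SE 0.52, adjusted p = 0.0831). With only the groups compared in the fit, both TE differences of Setdb1 were called (adjusted p = 0.0311 after the Max MO and 0.0198 after the Mcrs1 MO). The Mcrs1 MO ICM difference was called with TPM rescaled over the annotated genes (-1.88, adjusted p = 0.0416) and without control ICM replicate 2 (-2.40, adjusted p = 0.0143).

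Cbx5 showed the same separation. Its values were 46.2 and 61.8 TPM in the control ICM and 50.1 and 54.4 TPM in the control TE, and 16.9 to 33.1 TPM in the 8 knockdown libraries. In the Max MO ICM, both libraries held 16.9 TPM, and the log2 fold change was -1.61 (SE 0.31, adjusted p = 0.00453). It was called without each of the 4 libraries in turn, with values from -1.81 to -1.40. It was -0.82 (SE 0.31, adjusted p = 0.163) in the Max MO TE, -0.97 (SE 0.31, adjusted p = 0.0626) in the Mcrs1 MO ICM and -0.89 (SE 0.31, adjusted p = 0.105) in the Mcrs1 MO TE. The Mcrs1 MO ICM difference of Cbx5 was called without control ICM replicate 1 (-1.18, adjusted p = 0.0281) and with TPM rescaled over the annotated genes (-1.09, adjusted p = 0.0451).

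Suv39h1 was at 32.6 and 44.3 TPM in the control ICM, and the Max MO ICM had 14.3 and 9.58 TPM (-1.62, SE 0.38, adjusted p = 0.0113). Without control ICM replicate 1, it was -1.83 (adjusted p = 0.00943), and without control ICM replicate 2 -1.40 (adjusted p = 0.0287). Without Max MO ICM replicate 2, it was -1.35 (adjusted p = 0.0729), and under quantile normalization -1.17 (adjusted p = 0.0536). The Mcrs1 MO ICM libraries held 35.6 and 20.1 TPM and overlapped the controls (-0.49, SE 0.38, adjusted p = 0.420). In the TE, the Max MO libraries held 20.1 and 16.9 TPM, below the 47.8 and 35.5 TPM of the controls (-1.12, SE 0.38, adjusted p = 0.126). When only the 4 libraries of the Max MO and control ICM were fitted, none of the 3 calls remained, with adjusted p from 0.103 to 0.133. The share of TPM in annotated genes was also without overlap between controls and knockdowns. With TPM rescaled over these genes the falls were -2.47 for Setdb1, -1.73 for Cbx5 and -1.74 for Suv39h1 in the Max MO ICM, all called.

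**Figure D4:**
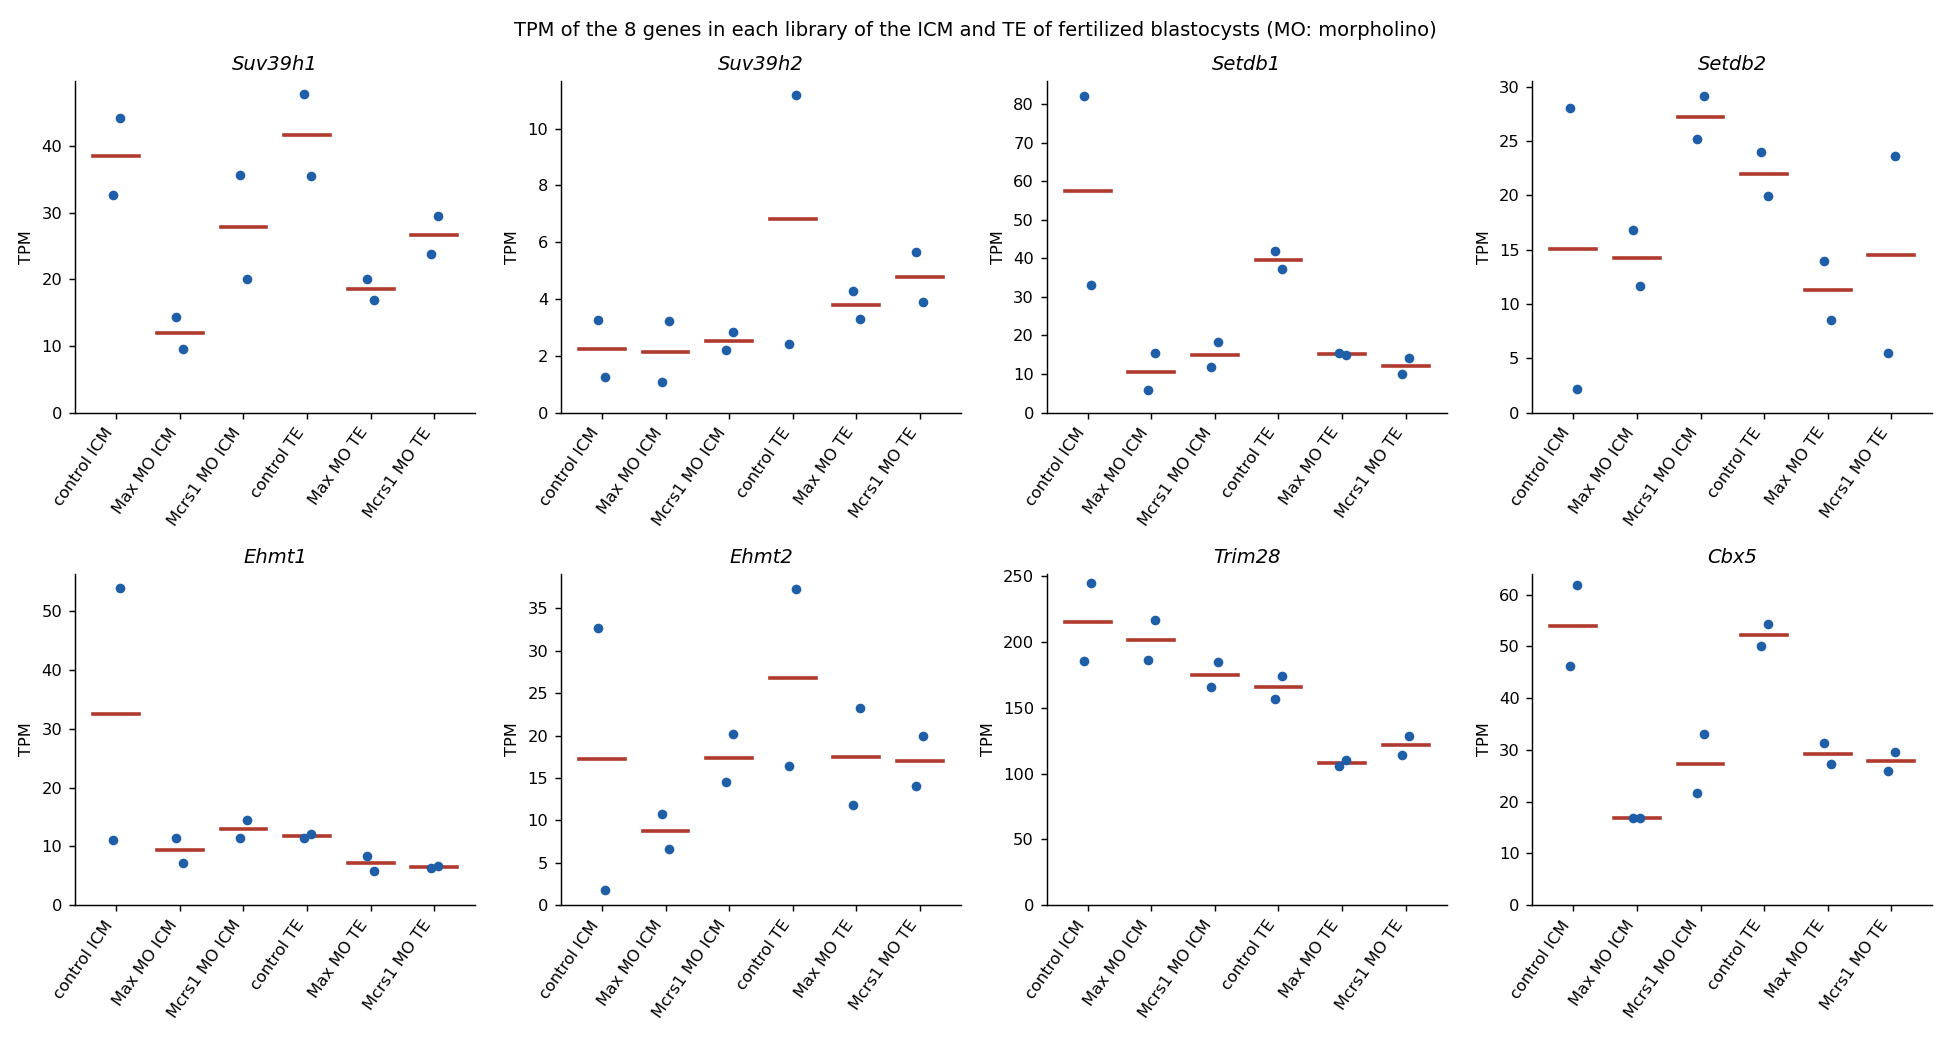
TPM (linear axis from 0, a scale of its own in each panel) of the 8 genes in each library of the fertilized blastocysts, by lineage and morpholino; points are libraries (n = 2 per group) and red bars group means. For Setdb1 and Cbx5, the 4 control libraries lie above all 8 knockdown libraries, and the 2 control ICM libraries are far apart for Setdb2, Ehmt1 and Ehmt2.

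The windows upstream of the start sites of the 3 genes that fell in the Max MO ICM, and that of Ehmt2, are shown because MAX binds a short and well-known sequence. Each line gives the 250 bases before the RefSeq start (GRCm38.p6, the mm10 assembly) on the gene's strand, 5′ to 3′, with CACGTG, which reads the same on both strands, in capitals. The windows are chr15:103239853-103240102 (minus strand) for Cbx5, chr3:95357203-95357452 (minus) for Setdb1, chrX:8074761-8075010 (minus) for Suv39h1 and chr17:34898224-34898473 (plus) for Ehmt2.
Cbx5: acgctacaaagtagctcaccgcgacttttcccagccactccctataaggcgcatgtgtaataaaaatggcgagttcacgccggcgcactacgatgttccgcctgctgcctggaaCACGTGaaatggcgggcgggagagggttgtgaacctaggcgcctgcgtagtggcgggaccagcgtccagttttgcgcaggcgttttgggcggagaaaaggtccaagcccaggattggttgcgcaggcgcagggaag
Setdb1: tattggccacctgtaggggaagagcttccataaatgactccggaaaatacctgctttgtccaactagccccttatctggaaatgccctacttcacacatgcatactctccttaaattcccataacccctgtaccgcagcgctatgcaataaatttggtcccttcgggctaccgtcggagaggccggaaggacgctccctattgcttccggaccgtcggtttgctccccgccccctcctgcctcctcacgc
Suv39h1: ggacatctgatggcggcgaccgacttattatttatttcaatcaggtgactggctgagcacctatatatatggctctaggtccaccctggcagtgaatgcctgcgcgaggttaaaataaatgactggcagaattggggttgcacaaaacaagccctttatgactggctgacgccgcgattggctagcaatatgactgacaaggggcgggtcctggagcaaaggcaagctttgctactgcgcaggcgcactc
Ehmt2: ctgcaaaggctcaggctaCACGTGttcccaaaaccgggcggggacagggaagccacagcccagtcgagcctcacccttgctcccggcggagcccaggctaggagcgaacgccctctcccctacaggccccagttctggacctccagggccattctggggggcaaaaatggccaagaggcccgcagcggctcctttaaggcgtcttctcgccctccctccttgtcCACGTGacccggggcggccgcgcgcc
Cbx5 held 1 E-box, 136 bases before the start, and the Ehmt2 window shown held 2, at 232 and 26 bases before the start. A second Ehmt2 window, not shown, held 1, at 236 bases before its start. The Setdb1 and Suv39h1 windows held none. Over the 8 genes, a CACGTG was in an upstream window of 2, Cbx5 and Ehmt2, and over all 27025 genes with a window in 6.86%. Of the 3 genes called in the Max MO ICM, 1 thus had the letters in this window. Ehmt2 was not called (-0.04, SE 0.92, adjusted p = 0.982), but its direction depended on the control. It was 1.75 without control ICM replicate 1 and -1.83 without replicate 2, so its response cannot be set against its E-boxes. A match of letters is not evidence of binding, and its absence here says nothing of sites elsewhere.

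Ehmt2, Setdb2 and Ehmt1 had control ICM libraries far apart, so that their ICM differences depended on which control was kept. Ehmt2 held 32.7 and 1.81 TPM in control ICM replicates 1 and 2, Setdb2 28.0 and 2.17 TPM, and Ehmt1 11.1 and 54.0 TPM. The Max MO ICM lay at 10.8 and 6.64 TPM for Ehmt2, between the 2 controls. Without control ICM replicate 1, the log2 fold change of Ehmt2 was 1.75 (adjusted p = 0.0430), and without replicate 2 it was -1.83 (adjusted p = 0.0302). Setdb2 was 2.24 (adjusted p = 0.0272) and Ehmt1 -2.44 (adjusted p = 0.00391) without replicate 1, and neither was called without replicate 2. In the Mcrs1 MO ICM, none of these 3 genes was called over all libraries. Without control ICM replicate 1, Setdb2 was 3.15 (adjusted p = 0.00824), Ehmt2 2.69 (adjusted p = 0.00948) and Ehmt1 -1.98 (adjusted p = 0.0130), and none of them was called without replicate 2. In the TE, where the controls were closer, Setdb2 held 24.0 and 19.9 TPM in controls and 14.0 and 8.50 TPM after the Max MO (-0.94, SE 0.89, adjusted p = 0.605). Ehmt1 held 11.4 and 12.2 TPM against 8.39 and 5.89 TPM (-0.67, SE 0.62, adjusted p = 0.601).

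Trim28 stayed the most abundant of the 8 in every group. It held 186 and 245 TPM in the control ICM, 186 and 217 TPM in the Max MO ICM and 166 and 184 TPM in the Mcrs1 MO ICM. The differences were -0.09 (SE 0.20, adjusted p = 0.784) and -0.29 (SE 0.20, adjusted p = 0.378). In the TE, controls held 157 and 174 TPM, above the 106 and 110 TPM of the Max MO (-0.61, SE 0.20, adjusted p = 0.124) and the 114 and 129 TPM of the Mcrs1 MO (-0.44, SE 0.20, adjusted p = 0.205). Suv39h2 stayed low, from 1.06 to 11.2 TPM over the 12 libraries.

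None of the 8 genes was called by limma between the Max MO and the Mcrs1 MO, in the ICM (1.81% of all genes) or in the TE (0.0267%). An unadjusted p below 0.05 was found for 1 of the 8 in the ICM, Suv39h1 at -1.13 (SE 0.38, adjusted p = 0.138), and for 0 in the TE. The difference between the ICM and the TE response was called for none of the 8 and for 0% of all genes, after either morpholino, and 0 of the 8 had an unadjusted p below 0.05. The calls in the Max MO ICM are thus not shown to be particular to the ICM or to Max. Between control ICM and control TE, none of the 8 was called, beside 2.92%, and 0 had an unadjusted p below 0.05. Without control ICM replicate 1, this difference was 2.11 for Ehmt1, -3.20 for Ehmt2 and -2.85 for Setdb2. The ICM response to the Mcrs1 MO minus the TE response was then 3.23 for Ehmt2 and 4.01 for Setdb2. A single control ICM library is left in these fits.

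Among the partner genes, 4 of the 7 SETDB1 and HUSH genes were lower in the Max MO ICM, where 15.1% of all genes were lower (Tasor2, listed as Fam208b, by -2.53, Morc2a by -2.31, Tasor by -1.79 and Atf7ip, which stabilizes SETDB1, with an adjusted p of 0.0388). Of the 8 G9A and GLP partners, 2 were lower, Mga, which pairs with MAX, by -2.83 and Wiz by -1.85. Of the 9 heterochromatin cofactors, 5 were lower (Atrx by -2.93, Dnmt1 by -2.12, Uhrf1 by -1.96, Smarcad1 by -1.67 and Hells by -1.16) and Dppa3, which shields maternal DNA methylation, was higher by 1.96. Of the 6 tested demethylases, 4 were lower, namely Kdm4c, Phf8, Kdm3a and Kdm1a, with -2.10, -1.87, -1.78 and -1.53. Of the 5 KRAB zinc fingers, Zfp708 was lower (-3.32), and of the 2 tested TRIM28 paralogs, Trim33 was lower (-2.02). Neither HP1 paralog was called. The calls of partner genes after either morpholino are from the fit of all 12 libraries. Those in the ICM against controls rest on the 2 control ICM libraries and were not examined without either of them. In the Max MO TE, none of the 39 tested genes of these lists was called by limma, and 14 had an unadjusted p below 0.05.

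In the Mcrs1 MO ICM, the lower genes were Atf7ip (-1.60), Cdyl2 (-1.67), Mga (-1.77), Trim24 (-1.70), Trim33 (-1.76), Dnmt1 (-2.29), Atrx (-2.08), Kdm3a (-1.78) and Phf8 (-2.30). In the Mcrs1 MO TE, they were Tasor2 (-1.58), L3mbtl2 (-1.29), Atrx (-1.48) and Kdm1a (-1.66), with Dppa3 higher (1.39). Between the Max MO and the Mcrs1 MO ICM, 1 of the 39 tested partner genes was called, Dppa3, higher by 1.17 after the Max MO.

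Set beside the fertilized controls, the SCNT blastocysts held lower mean levels of several of the 8, but the experiments cannot be told apart from the embryo type, and no test was made. Setdb1 was at 4.63 to 18.1 TPM in the 6 SCNT ICM libraries and at 33.0 and 82.2 TPM in the control ICM, and at 2.21 to 17.8 TPM in the SCNT TE and 37.3 and 41.8 TPM in the control TE. Cbx5 was at 13.4 to 26.2 TPM against 46.2 and 61.8 TPM in the ICM. Trim28 was at 40.3 to 239 TPM in the SCNT ICM, which overlapped the 186 and 245 TPM of the controls.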

How the data were processed

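Libraries of 10 blastomeres were made with Smart-seq2, pre-amplified and sequenced as paired ends. Reads had been trimmed with Cutadapt 1.16, mapped to mm10 with HISAT2 and quantified per library with StringTie by the authors, with no pooling of libraries. The deposited tables hold TPM, FPKM and coverage per gene, with no read counts. The TPM column was treated as a score on the TPM scale, since the deposited rows of annotated genes and of loci assembled from the reads overlap, so that the column exceeds the total that TPM has by definition. FPKM and coverage, as deposited, were used only to derive the aligned bases, so the precision of single values is known from replicates and not from counts.

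From these values, the TPM of the rows of each gene was summed, log2(TPM + 1) was fitted with limma 3.58.1 in R 4.3.3 (moderated variance with a mean trend), and genes with a mean of at least 1 TPM over the libraries of the fit were tested. One fit held the 56 libraries of CCs and SCNT embryos (12084 genes) and another the 12 of the morpholino experiment (11219 genes). The study's count model was not used, since there are no counts. A call needed a Benjamini-Hochberg adjusted p below 0.05 and a log2 fold change of at least 1 in size, which understates the change of genes of low TPM. Standard errors (SE) are from limma, and ± is the SD over libraries. The fit was tested on simulated data with known changes. Among the comparisons with 3 or more pairs, replicate numbers deviated together in every pair for 14 against 6 hpa (r from 0.142 to 0.390 over genes) and for SCNT ICM against TE (0.130 to 0.298), and a replicate block changed no call there.

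Alternatives were another pseudocount (0.1), a mean of at least 5 TPM or no filter, TPM rescaled over the annotated genes, quantile normalization, only the groups compared, the replicate block, each set of 3 replicates and leaving out libraries. All 8 genes are named, with the calls of the partner lists in the knockdowns, at most 3 per list elsewhere, and the 3 genes most like each in course. Mphosph8 and Zfp57 were followed over several steps. The alternatives were examined for the calls of the 8 genes and not for those of the partner lists. The genes and lists were chosen with earlier results of these data known. Promoter windows are from RefSeq (GRCm38.p6), and gene positions and exon overlaps from GENCODE vM21.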

Additional observations from a re-analysis of the deposited data

Results flagged for a closer look

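Dixon's test was run for each gene in each group of 4 to 10 libraries, which gave 72 tests that share libraries. In 5 of these tests, 1 library lay far from the others, and chance alone marks about 1 in 20 tests. Trim28 was at 0.107 TPM in 14 hpa replicate 1, against 3.75 to 9.87 TPM in the other 5 libraries. Ehmt2 was at 0.908 TPM in 8C replicate 2, against 5.13 to 9.30 TPM. Setdb2 was at 0.835 TPM in SCNT TE replicate 2, against 8.31 to 17.6 TPM. Ehmt1 was at 2.11 TPM in E2C replicate 1, against 4.89 TPM or more in the others. In the opposite direction, Cbx5 was at 23.4 TPM in morula replicate 3, against 11.0 to 13.8 TPM. The causes were not tested.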

How the results depend on the processing

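Of the 24 calls of the 8 genes, 8 passed the threshold under every alternative run for them, and none changed sign in the 324 refits, of which 41 missed the threshold. All 24 had the same direction when the TPM of the loci assembled from the reads was used, but not all reached 2-fold. The log2 difference on these loci was 0.38 for Ehmt1 at 4C, -0.62 for Setdb1 at E2C and 0.75 for Trim28 at 8C. Against CCs, it was -0.71 for Cbx5 at 6 hpa, 0.89 for Trim28 in the TE and 0.96 for Suv39h1 in the ICM. Along SCNT development, the 11 calls became 20 with replicates 4 to 6 alone, and these were in part other calls. Those of Cbx5 at L2C, Ehmt1 from morula to TE, Setdb1 at E2C and Setdb2 at 4C were lost there. The share of all genes called with these replicates is not given here, so the 20 cannot be judged against it. The 10 calls against CCs became 6 with replicates 1 to 3 alone and 8 to 10 without each CC library. The 5 calls at 4C and 8C ranged from 3 to 5 without each 4C library, with the lowest count without replicate 1. With only SCNT ICM replicates 4 to 6 (chosen after seeing the data), 1 gene was called against morula in place of 0. When only the groups compared were fitted, the 3 calls after Max knockdown, all in the ICM, were lost and 1 was gained in the TE (Setdb1), which left 1. The 0 calls after Mcrs1 knockdown became 1 with a mean of at least 5 TPM, 2 with TPM rescaled over the annotated genes and 1 with only the groups compared. Leaving out 1 library gave 2 to 6 calls in the Max MO ICM and 0 to 4 in the Mcrs1 MO ICM, the highest without control ICM replicate 1. Without that library, the response differed between ICM and TE for 2 genes (Ehmt2 and Setdb2, after Mcrs1 knockdown) and control ICM and TE differed for 3, whereas leaving out the other libraries gave 0 for both. The lone control ICM library was then assumed to vary like the other groups. The replicate block gave 11 calls along development, 8 against CCs and 3 after Max knockdown, and 0 in the other comparisons, and the numbers mark no stated pairing. Rescaling moved the median log2 fold change of all genes by 0.27 at L2C, -0.24 at 4C and -0.23 at 8C, and quantile normalization by -0.27 at L2C and 0.41 at 4C. With 2 libraries per group and no counts, small differences in the knockdowns were not detectable.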
